A study of Mus musculus with 8 samples.

Results

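The genes described here are 52 mouse genes for enzymes that modify histones or DNA, chosen by symbol from a list and set against 21631 protein-coding genes on the autosomes and the X chromosome. They comprise 9 histone acetyltransferases, 8 deacetylases, 18 genes of histone methylation, 10 of histone demethylation and 7 of DNA methylation. All 52 have an entry in RefSeq's annotation of GRCm38.p6, whose chromosomes are those of mm10, the build of the regions. The accessible chromatin of Hepa-1c1c7, an established mouse hepatoma line, was mapped by ATAC-seq, in which the Tn5 transposase inserts sequencing adapters into DNA that nucleosomes leave exposed. Cells stayed untreated (0 µM) or were kept for 72 h in 0.1, 0.5 or 1 µM potassium chromate, a source of hexavalent chromium, with 2 libraries per dose. The deposited data used here are 3 lists of regions, 1 per chromate dose, each named for its dose together with the untreated cells. No list has a replicate, so a difference between doses cannot be set against any spread. All 3 list names carry the same untreated label, so the lists may not be independent of each other. The 1 µM libraries also carry another label prefix than all others, which cannot be told apart from the dose. The names of the lists also call the regions unique, without saying to what. Whether a region marks open chromatin in treated cells or a difference from untreated cells is therefore not known, and a gene without a region is not shown to be closed.

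Chromatin modifiers work as writers, erasers and readers. Acetyltransferases add acetyl groups to histone tails, which loosens the grip of histones on DNA, and deacetylases remove them. Histone methyltransferases mark promoters, enhancers or silent chromatin according to the lysine they modify, demethylases take those marks away, and DNA methyltransferases with the TET dioxygenases set and erase cytosine methylation.

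The lists held 14401, 11130 and 15894 regions at 0.1, 0.5 and 1 µM, with a median width of 339, 324 and 353 bp. Each region carries the authors' score, a whole number from 4 upward of unstated scale. It is given here with its percentile within its own list, that is the share of regions in that list with a lower score, a tie counting in equal parts to both sides. Scores are not compared between doses. Of 13 hepatocyte marker genes, 2, 2 and 3 had a region within 1 kb of a gene end in order of dose. These are 15.4%, 15.4% and 23.1%, against 19.5%, 18.7% and 23.0% of all protein-coding genes. Apoa2 and Foxa2 had one at each dose, whereas Alb, Apoa1, Ttr and Hnf4a had none at a gene end. Of 12 markers of blood, stromal, endothelial, neuronal, epithelial and heart cells, Snap25 had a region at 0.1 µM. Dcn had one at 0.5 and 1 µM, and the other 10 had none. The share was 8.33% of these markers in each list.

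Over all 52, the enzyme genes had a region at a gene end about as often as other genes. At 0.1 µM 11 of 52 (21.2%) had at least 1 base of a region within 1 kb of either end, against 19.5% of all protein-coding genes. The count was 9 (17.3%) at 0.5 µM against 18.7%, and 12 (23.1%) at 1 µM against 23.0%. These shares lie near the background at every dose. At all 3 doses a region was listed for 9 genes (17.3%, against 14.2% of all genes), namely Kat2b, Kat7, Hdac2, Ezh2, Eed, Kmt2d, Kdm4a, Tet2 and Uhrf1. Suz12 was listed only at 0.1 µM, Kmt2b and Kdm5a only at 1 µM, and Kdm3a at 0.1 and 1 µM. In the higher-scoring 50% of each list 8, 6 and 5 genes had a gene-end region in order of dose. These are 15.4%, 11.5% and 9.62%, against 12.0%, 10.8% and 14.0% of all genes. In those parts of the lists 3 genes (5.77%, against 7.11%) were listed at every dose.

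With the gene body and 10 kb either side included, 19 of 52 genes (36.5%) held a region at 0.1 µM against 31.7% of all genes, 21 (40.4%) at 0.5 µM against 30.2%, and 24 (46.2%) at 1 µM against 36.8%. Every dose gave a region in 15 genes (28.8%, against 23.4%). These enzyme genes are long, with a median of 52.0 kb against 17.3 kb for all protein-coding genes, and a longer span holds more regions. Among genes of at least that length, 8, 10 and 11 of 26 enzyme genes (30.8%, 38.5% and 42.3%) held a region in the body or flanks, against 48.3%, 42.3% and 52.0% of all 4760 such genes. Within 1 kb of an end, 3, 3 and 4 of the 26 did (11.5%, 11.5% and 15.4%), against 1158, 1028 and 1285 of the 4760. Among long genes both shares were thus below those of all genes at each dose. Shares of the shorter genes alone were not counted. The part of gene length in the share above background for the body and flanks over all 52 genes was not tested. In 24 of the 52 (46.2%) no region was listed in the gene or its flanks at any dose, against 57.3% of all genes.

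**Figure D1:**
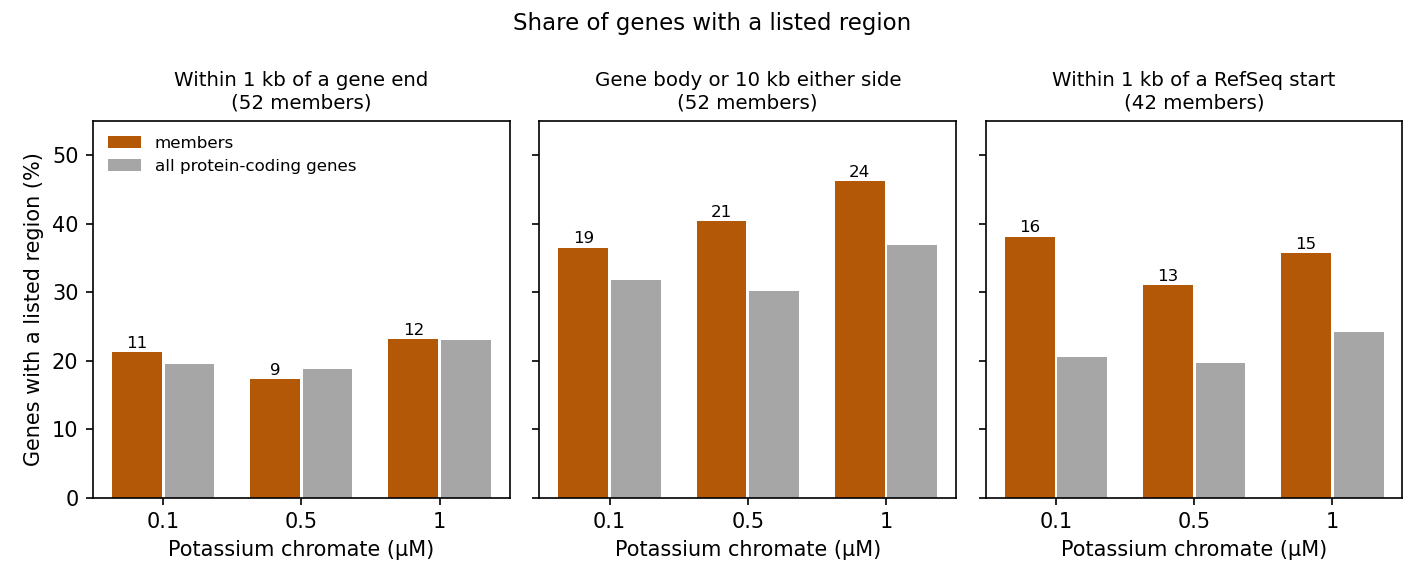
Percent of genes with a listed region (vertical axis) at each chromate dose, for the enzyme genes (brown, number of genes above the bar) and for all protein-coding genes (grey), by where the region lies. At gene ends the bars stand close together (11, 9 and 12 genes), while around annotated starts the brown bars are the taller ones (16, 13 and 15 of 42 genes).

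Annotated transcription starts gave another picture from the outer ends of the genes. RefSeq promoters were at hand for 42 of the 52 genes and for 17274 protein-coding genes, and some genes start inside the span that the gene table gives. Within 1 kb of such a start, internal ones included, a region was listed for 16 of 42 genes (38.1%) at 0.1 µM against 20.5% of all genes, for 13 (31.0%) at 0.5 µM against 19.6%, and for 15 (35.7%) at 1 µM against 24.1%. At every dose 13 genes (31.0%) had one, against 15.1%. Hdac4, Hdac7, Kdm4c and Kdm6a join the gene-end genes by this count at each dose, Kat5 at 0.1 µM and Kat6b at 1 µM. The enzyme genes carry 1.48 promoters per gene against 1.22 for all genes, and of the 10 genes without a promoter sequence only Kmt2b and Kdm5a had a gene-end region; the part of either in the higher share was not tested. This way of counting was chosen after the data had been seen.

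**Figure D2:**
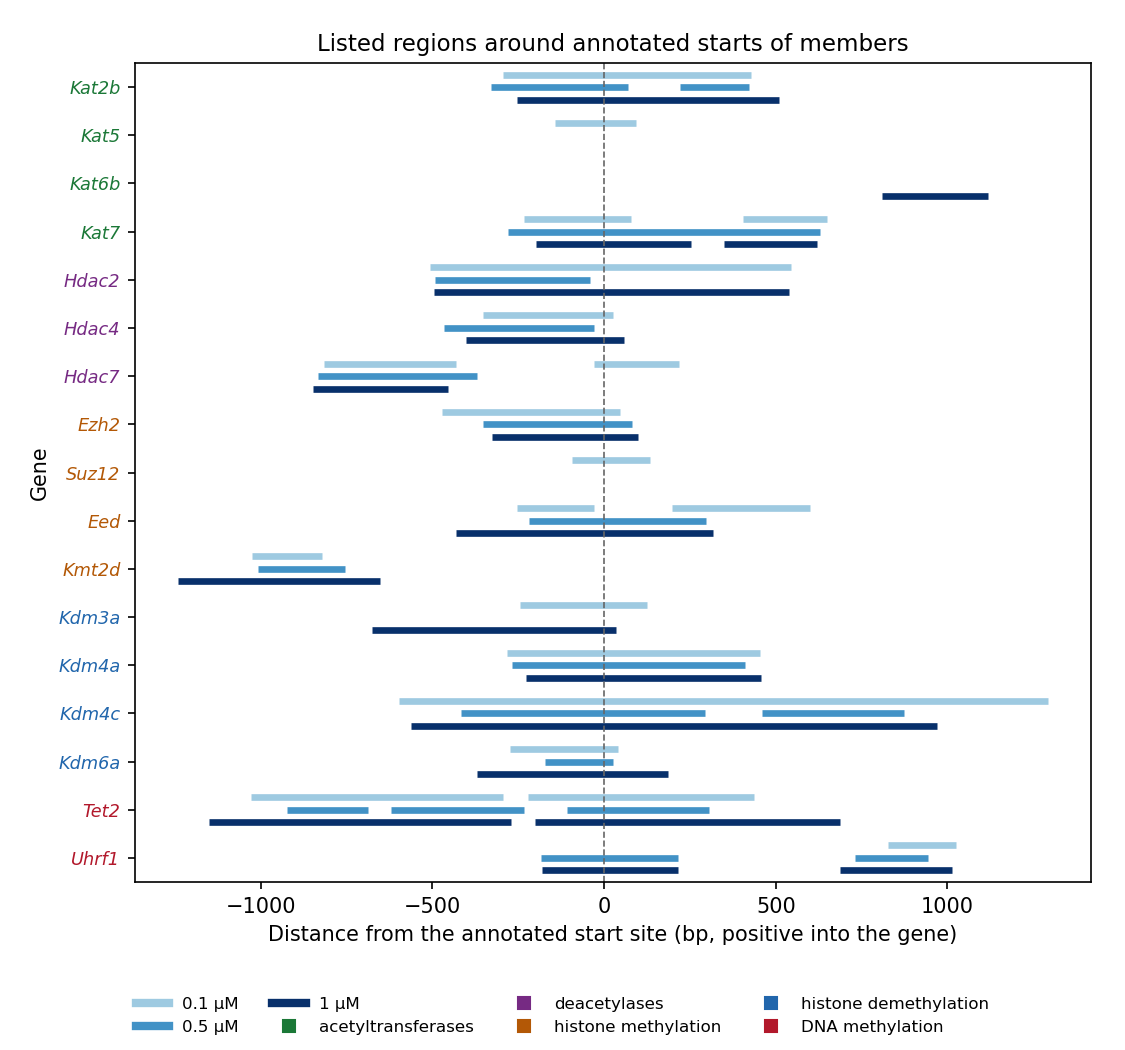
Listed regions of 17 enzyme genes drawn as bars by distance in bp from an annotated start (dashed line, positive into the gene), 1 row of bars per dose, for the start of each gene with the most listed bases within 250 bases either side, summed over the doses. Bars of Ezh2, Kdm4a, Kdm4c, Kdm6a, Tet2, Kat7 and Kat2b (its second start) cross the line at every dose, those of Kmt2d lie before it, and Suz12 and Kat5 have a bar at 0.1 µM only.

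The promoters shown are those of the 5 genes in which a gene-end region covered the annotated start at all 3 doses, from 250 bases before the start to 50 bases after it (RefSeq, GRCm38.p6). They are Kdm4a (chr4:118179994-118180293, minus strand), Tet2 (chr3:133544341-133544640, minus strand), Ezh2 (chr6:47594981-47595280, minus strand), Kat2b (chr17:53566721-53567020, plus strand) and Kat7 (chr11:95310197-95310496, minus strand). Capitals mark the bases that lie inside a listed region at all 3 doses.
Kdm4a: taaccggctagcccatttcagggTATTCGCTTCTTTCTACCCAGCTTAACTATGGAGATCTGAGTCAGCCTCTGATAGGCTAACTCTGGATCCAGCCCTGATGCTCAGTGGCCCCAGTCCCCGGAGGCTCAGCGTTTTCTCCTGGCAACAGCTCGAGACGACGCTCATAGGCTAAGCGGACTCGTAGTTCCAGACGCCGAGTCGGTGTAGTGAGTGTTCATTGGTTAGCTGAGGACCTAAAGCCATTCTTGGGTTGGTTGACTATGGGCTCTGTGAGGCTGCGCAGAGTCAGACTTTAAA
Tet2: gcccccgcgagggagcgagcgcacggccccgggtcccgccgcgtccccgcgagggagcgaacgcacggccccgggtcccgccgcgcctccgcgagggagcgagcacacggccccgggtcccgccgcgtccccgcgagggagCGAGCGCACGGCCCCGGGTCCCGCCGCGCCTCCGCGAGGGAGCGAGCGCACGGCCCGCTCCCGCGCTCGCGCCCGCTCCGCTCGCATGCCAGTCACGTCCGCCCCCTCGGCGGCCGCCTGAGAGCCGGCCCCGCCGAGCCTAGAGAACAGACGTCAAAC
Ezh2: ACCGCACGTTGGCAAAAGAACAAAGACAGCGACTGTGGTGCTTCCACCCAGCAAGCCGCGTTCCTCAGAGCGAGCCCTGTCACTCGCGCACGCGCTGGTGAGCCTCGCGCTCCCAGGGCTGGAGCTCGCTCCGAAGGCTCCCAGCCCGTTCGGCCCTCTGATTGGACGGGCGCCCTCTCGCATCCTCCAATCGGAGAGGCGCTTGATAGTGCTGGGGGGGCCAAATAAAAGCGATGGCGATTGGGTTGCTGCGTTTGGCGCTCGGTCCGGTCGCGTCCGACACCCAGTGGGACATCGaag
Kat2b: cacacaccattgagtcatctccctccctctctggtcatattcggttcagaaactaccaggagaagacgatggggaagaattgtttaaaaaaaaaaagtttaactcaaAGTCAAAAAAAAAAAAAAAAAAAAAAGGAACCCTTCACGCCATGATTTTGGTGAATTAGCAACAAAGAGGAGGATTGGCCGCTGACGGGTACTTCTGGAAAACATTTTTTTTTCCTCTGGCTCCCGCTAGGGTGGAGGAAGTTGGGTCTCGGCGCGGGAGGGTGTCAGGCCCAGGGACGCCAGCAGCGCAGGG
Kat7: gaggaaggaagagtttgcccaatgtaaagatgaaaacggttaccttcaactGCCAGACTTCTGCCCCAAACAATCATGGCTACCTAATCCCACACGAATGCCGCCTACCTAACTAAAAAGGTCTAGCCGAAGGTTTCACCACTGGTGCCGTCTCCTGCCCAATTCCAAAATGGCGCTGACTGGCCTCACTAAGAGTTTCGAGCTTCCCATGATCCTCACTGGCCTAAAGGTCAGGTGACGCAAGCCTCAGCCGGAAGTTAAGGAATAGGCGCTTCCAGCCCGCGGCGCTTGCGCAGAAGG
Of 300 bases, 277 were covered at every dose in Kdm4a, 159 in Tet2, 297 in Ezh2, 193 in Kat2b and 249 in Kat7. Base composition differs widely among them, since Tet2 has 81.3% G and C with 57 CpG dinucleotides, whereas Kat2b has 47.0% with 11 and carries a run of A before its start.

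Among the acetyltransferases, which activate transcription by acetylating histones, Kat2b and Kat7 had gene-end regions at every dose and the other 7 had none at any dose. These are 22.2% and 77.8% of the 9 genes, against 14.2% and 73.2% of all genes. Kat2b encodes PCAF, the relative of GCN5. Over its start, the promoter region was 472 bp wide with a score of 33 (percentile 88.7) at 0.1 µM, 346 bp with a score of 9 (42.9) at 0.5 µM and 447 bp with a score of 24 (76.9) at 1 µM. A second region within 1 kb before it scored 11, 7 and 11 (percentile 50.3, 25.0 and 43.4). Kat2b held more regions than any other of the 52 genes, with 10, 8 and 10 in the gene and its flanks in order of dose. Only 48, 65 and 61 of all 21631 genes held as many. Their midpoints lay no further than 20.5 kb into a gene of 106 kb, and 7 of the 10 at 1 µM overlapped a region at both other doses. The strongest of them at 0.1 and 1 µM was not at the first start but 17.4 kb and 17.5 kb further in, over the second annotated start, with scores of 40 (percentile 91.8) and 37 (87.7). At 0.5 µM that place held 2 regions, with scores of 14 (67.3) over the start and 11 (54.8) behind it, and the strongest region was 1 at 20.4 kb (score 23, percentile 86.1). All 300 bases of the second promoter were covered at each dose.

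**Figure D3:**
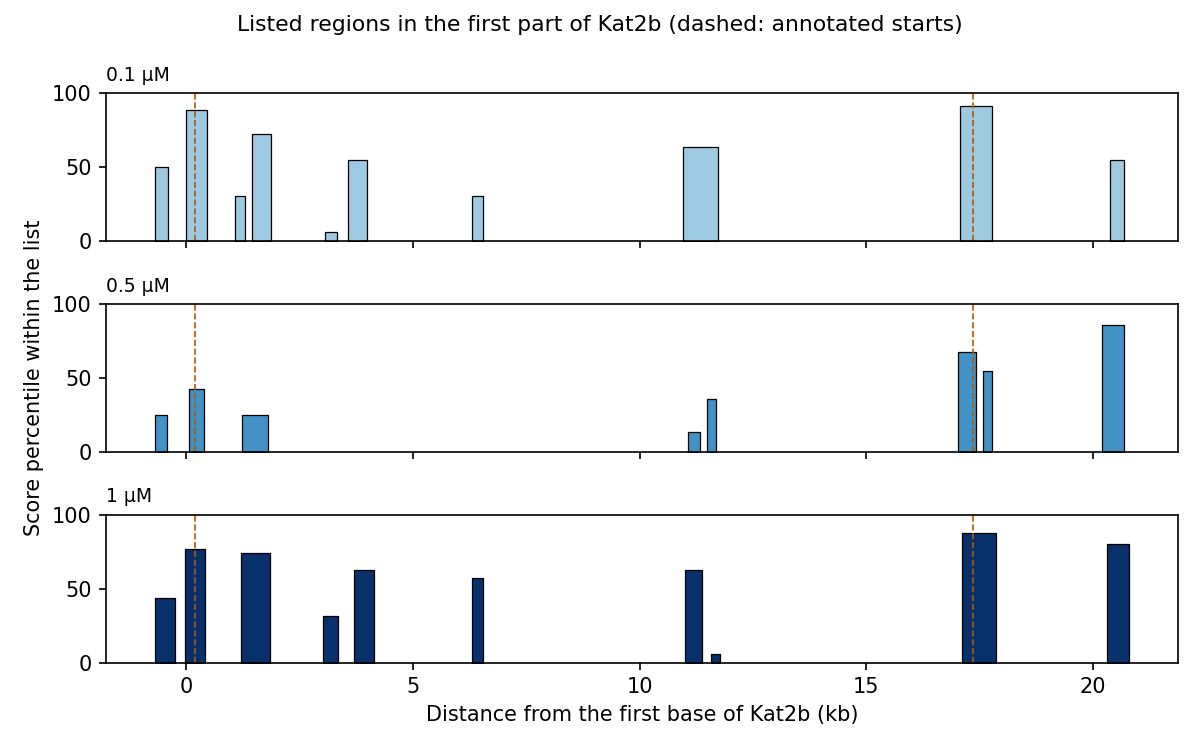
Listed regions along the first part of Kat2b at each dose, as boxes over the distance in kb from its first base, with the score percentile within the list as height (0 to 100) and annotated starts as dashed lines. Boxes over the second start reach 91.8 at 0.1 µM and 87.7 at 1 µM, and 3 sites between the starts, at 3.19, 3.78 and 6.42 kb at 0.1 µM, have no box at 0.5 µM.

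Kat7, which encodes the acetyltransferase HBO1, had 2 regions at its start at 0.1 µM (314 and 244 bp, scores 11 and 5, percentile 50.3 and 6.47). At 0.5 µM a single region of 908 bp (score 9, percentile 42.9) spanned both places, and at 1 µM there were again 2, of 452 and 272 bp (scores 13 and 18, percentile 51.1 and 65.0). The start region of Kat7 was thus listed at each dose, split or whole. Kat5, the gene of TIP60, had a region of 235 bp over an internal start at 0.1 µM alone (score 6, among the lowest scores of the list). Kat6b had one of 309 bp at 1 µM alone, 794 bases past a start (score 14, percentile 54.4). Crebbp, one of the CBP and p300 coactivator pair, had a region in its flank at 0.5 and 1 µM (percentile 59.5 and 13.2), which lies at an end of the neighbouring gene Trap1. Kat8 likewise had a flank region at 0.5 µM at an end of Prss36. Ep300, Kat2a and Kat6a had none in the gene or within 10 kb.

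Among the deacetylases, Hdac2 alone had a gene-end region, 1 gene of 8 in each list (12.5%), against 19.5%, 18.7% and 23.0% of all genes in order of dose. In the body or flanks 5 of 8 (62.5%) had a region at 0.1 µM, and 6 of 8 (75.0%) at 0.5 and at 1 µM, against 31.7%, 30.2% and 36.8%. The class holds Hdac9 with 870 kb and Hdac4 with 267 kb, and the part of gene length in its share was not tested. Hdac2, a catalytic subunit of several corepressor complexes, had one of the strongest regions of all 52 genes. It was 1051 bp wide at 0.1 µM (score 48, percentile 94.1), 451 bp at 0.5 µM (score 19, percentile 79.8) and 1036 bp at 1 µM (score 79, percentile 96.8). At 0.1 and 1 µM it covered the annotated start, and at 0.5 µM it ended 41 bases before it. Hdac4, a class IIa enzyme that shuttles between nucleus and cytoplasm, had 1 region at each dose, 15.2, 15.1 and 15.2 kb inside its outer end. It lay at the annotated start, which it covered at 0.1 and 1 µM and missed by 29 bases at 0.5 µM (scores 26, 14 and 38, percentile 82.9, 67.3 and 88.6). By the gene-end rule Hdac4 is therefore not counted, although its start is among the higher-scoring ones.

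Hdac7, another class IIa gene, held 5 regions at each dose, and 258 to 469 of all genes held as many in a list. Their scores were 8 or less except for 1 region about 12.1 kb inside, with scores of 6, 18 and 14, the only place with overlapping regions in all 3 lists. Hdac7 lies on chromosome 15, which held 13.1%, 15.2% and 13.3% of the regions but 3.59% of the protein-coding genes. There 52.2% and 54.9% of genes held a region in the body or flanks at 0.5 and 1 µM, against 29.4% and 36.2% elsewhere; the part of the chromosome in the number at Hdac7 and Kmt2d was not tested. Ep300, on the same chromosome, had none. Hdac3, the catalytic subunit of the NCoR and SMRT complexes, had a flank region at each dose, 1238 to 1268 bases outside the gene and at an end of Diaph1 (scores 14, 13 and 21, percentile 59.6, 63.6 and 72.6). Hdac5 had a weak body region at 0.5 and 1 µM (score 6 each, percentile 13.8 and 13.2). Hdac9, the longest of the genes with 870 kb, held 1 region per dose, which was not the same place throughout. Hdac1 and the sirtuin gene Sirt1 had none in the gene or its flanks.

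Of the 18 histone methylation genes, 4, 3 and 4 (22.2%, 16.7% and 22.2%) had a gene-end region in order of dose, against 19.5%, 18.7% and 23.0% of all genes. Grouped by the residue they modify, of the 4 genes of Polycomb repressive complex 2, which places the silencing mark on H3K27, 3 had a gene-end region at 1 or more doses, as did 2 of 6 genes of H3K4 methylation, and none of 4 of H3K9, 2 of H3K36 or 1 of H3K79 methylation. Kmt2e, a family member without settled activity, had none either. Such groups are too small to compare, and 26.8% of all genes had a gene-end region at 1 or more doses.

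Ezh2, the catalytic subunit of the Polycomb complex, had 1 region at its start in each list, 518 bp wide at 0.1 µM (score 24, percentile 81.6), 432 bp at 0.5 µM (score 12, percentile 59.5) and 426 bp at 1 µM (score 29, percentile 82.4). It covered the start each time. Eed, which binds the finished mark, had 2 regions on either side of its start at 0.1 µM (scores 14 and 6). A single region across the start was listed at 0.5 µM (518 bp, score 16, percentile 73.0) and at 1 µM (747 bp, score 8, percentile 23.8). Suz12, the scaffold subunit, had a region of 228 bp across its start at 0.1 µM alone (score 7, percentile 22.8). Ezh1, the paralogue of Ezh2, had none.

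Kmt2d, an H3K4 methyltransferase of enhancers, had a weak gene-end region at each dose, with scores of 9, 6 and 5 (percentile 38.2, 13.8 and 6.05). This is its 3′ end, which is shared with Prkag1, and not its start. A further region lay 821, 754 and 651 bases before its annotated start, also with low scores (8, 7 and 5). Regions 9688 bases or more before that start lie at the ends of Dhh and Rhebl1. Kmt2b had a region at 1 µM alone, at an end shared with Zbtb32 (400 bp, score 9, percentile 31.6), and Setd1a a flank region at 1 µM at the ends of Fbxl19 and Orai3 (score 5). The other 12 genes of this class (66.7% of 18, against 57.3% of all genes) had no region in the gene or within 10 kb at any dose. They are Ezh1, Kmt2a, Kmt2c, Kmt2e, Setd1b, Setd2, Nsd1, Dot1l and the H3K9 group of Ehmt1, Ehmt2, Suv39h2 and Setdb1.

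Histone demethylation genes had gene-end regions in 2, 1 and 3 of 10 cases in order of dose, against 19.5%, 18.7% and 23.0% of all genes. Body or flank regions were listed for 5, 6 and 7 of the 10, against 31.7%, 30.2% and 36.8%. Kdm4a, which removes methyl groups from H3K9 and H3K36, had a strong region over its start each time. It was 737 bp wide at 0.1 µM (score 26, percentile 82.9), 679 bp at 0.5 µM (score 19, percentile 79.8) and 684 bp at 1 µM (score 52, percentile 93.2). A weaker flank region at 0.1 and 1 µM (scores 8 and 9) lies at an end of the neighbouring gene St3gal3. Kdm3a, an H3K9 demethylase, had a region over its start at 0.1 µM (371 bp, score 14, percentile 59.6) and at 1 µM (711 bp, score 8, percentile 23.8) and none at 0.5 µM. Kdm5a, an H3K4 demethylase, had a weak one at 1 µM (207 bp, score 7, percentile 18.4) at an end it shares with Ccdc77.

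Kdm4c, a paralogue of Kdm4a, held the widest region of all 52 genes at 0.1 and at 1 µM, over an internal start. The region was 1889 bp wide at 0.1 µM with a score of 67 (percentile 97.2). At 0.5 µM the same stretch was listed as 2 regions of 712 and 415 bp (scores 27 and 21, percentile 89.8 and 83.4), and at 1 µM as 1 region of 1532 bp with a score of 6 (13.2). As stated above, scores are not compared between doses, and a wide region with so low a score is not read here as a dose effect. Kdm6a, the X-linked H3K27 demethylase UTX, had a region over an annotated start at every dose, 1343 to 1540 bases inside its outer end. Its width was 315, 199 and 557 bp and its score 14, 7 and 22 (percentile 59.6, 25.0 and 74.1) in order of dose. Kdm6b, its relative JMJD3, had a region at 0.5 and 1 µM, 1074 and 1191 bases inside an end (scores 12 and 14). Kdm6b and Kdm6a thus stand just outside the limit of 1 kb, as does Hdac3, while Uhrf1 at 0.1 µM, with 828 bases, stands inside it. Kdm5b had a flank region at 0.5 and 1 µM about 3 kb from the gene (scores 5 and 10), and Kdm2a a body region at 0.5 µM (score 12). Kdm1a, the gene of LSD1, and Kdm2b had none.

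In the DNA methylation class, Tet2 and Uhrf1 had gene-end regions at every dose, and the other 5 genes had none in the gene or within 10 kb. These are 28.6% and 71.4% of the 7 genes, against 14.2% and 57.3% of all genes. Tet2 oxidises methylcytosine, the first step of its removal. Its start region was 660 bp wide at 0.1 µM (score 39, percentile 91.3), 416 bp at 0.5 µM (score 13, percentile 63.6) and 888 bp at 1 µM (score 7, percentile 18.4). A second stretch before it, 294, 233 and 271 bases from the start, scored 11, 16 and 12 (percentile 50.3, 73.0 and 47.4), and at 0.5 µM a further region of 236 bp followed. Body regions of low score were listed at 0.1 µM (8 and 9) and at 1 µM (5). Regions were thus listed on both sides of the Tet2 start at each dose.

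Uhrf1, which brings the maintenance methyltransferase to newly copied DNA, has 2 annotated starts less than 1 kb apart. At the first, a region of 400 bp was listed at 0.5 µM (score 11, percentile 54.8) and of 396 bp at 1 µM (score 11, percentile 43.4), with none at 0.1 µM. At the second, regions of 199, 211 and 328 bp were listed in order of dose, with scores of 4, 8 and 8. The higher-scoring region near Uhrf1 (scores 29, 33 and 46, percentile 86.2, 92.7 and 91.6) lies behind the gene, at an end of Kdm4b, another demethylase gene. The genes of the DNA methyltransferases, Dnmt1, Dnmt3a and Dnmt3b, and of the TET enzymes Tet1 and Tet3 had no region at any dose.

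**Figure D4:**
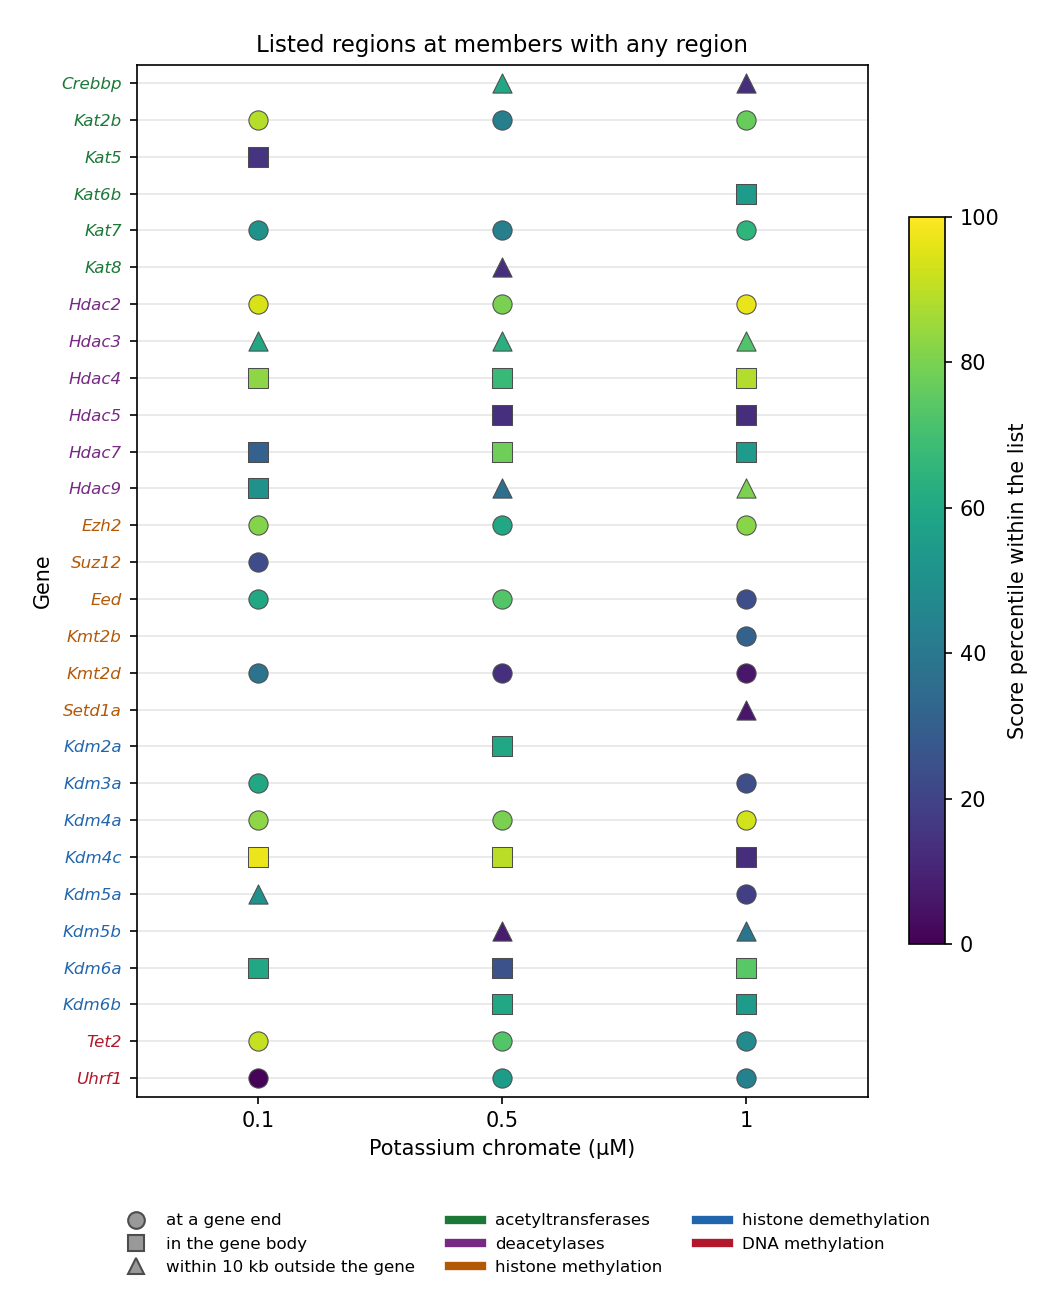
Score percentile within the list (colour, 0 to 100) of the highest-scoring region of each of the 28 enzyme genes with any region, by dose, with the kind of place as the marker, gene ends taken first, then the body, then the flank. Gene names are coloured by class. Hdac2 and Kdm4a keep bright circles at all 3 doses (percentile 79.8 or more), and Kmt2d stays dark (38.2 or less).

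The best gene-end region of an enzyme gene had a median percentile of 59.6 at 0.1 µM (11 genes), against 59.6 over all genes with one. The median was 59.5 (9 genes) against 59.5 at 0.5 µM, and 45.4 (12 genes) against 60.3 at 1 µM. The values ran from 0.930 to 94.1, from 13.8 to 79.8 and from 6.05 to 96.8 in order of dose. In all, 42, 40 and 47 regions were listed in or near the 52 genes, with a median width of 305, 339 and 395 bp. Of these, 15, 13 and 16 lay at a gene end, 19, 17 and 18 in a body, and 8, 10 and 13 in a flank. Flank regions often belonged to a neighbour as well, since 6, 6 and 8 of them lay within 1 kb of an end of another protein-coding gene. For gene-end regions this held in 1, 1 and 3 cases.

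Promoters of the enzyme genes were richer in G and C than promoters at large, whether listed or not. The 62 promoters of 42 genes had a median of 65.2% G and C with 28 CpG dinucleotides, against 56.7% and 13 over 21045 promoters of protein-coding genes. A listed region reached 12 of the 62 (19.4%) at every dose, against 12.5% of all promoters, and 43 (69.4%) lay in no region, against 75.9%. The 12 had a median G and C content of 63.7% with 24 CpG dinucleotides and the 43 had 69.7% with 28. Over all protein-coding genes the order was the other way round, with 62.0% and 23 in listed promoters and 54.3% and 8 in the unlisted ones. Among the unlisted enzyme promoters were those of Kmt2c (88.0% G and C, 56 CpG), Dnmt3a (82.3%, 46 CpG) and Crebbp (82.0%, 49 CpG). Several genes have starts a few bases apart, so these promoters are not independent of each other.

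A search of the promoters on both strands used a CTCF pattern, since the title of the series names CTCF sites, and 8 shorter patterns. A match to CTCF was found in 0 of 62 enzyme promoters, against 0.565% of all 21045. So rare a match leaves 62 promoters too few to show a difference. The GC box GGGCGG occurred in 66.1%, against 46.7%, and the CCAAT box in 33.9%, against 38.5%. In the 12 promoters listed at every dose CCAAT was found in 7 (58.3%), against 48.5% of all promoters listed at every dose, and in the 43 unlisted ones in 10 (23.3%), against 36.4%. For GGGCGG the figures were 6 of 12 listed at every dose, against 70.8%, and 30 of 43 unlisted (69.8%), against 39.2%. Ezh2 carries 3 copies of CCAAT, at positions -90, -64 and -11 from the start, 2 of them on the opposite strand. The AP-1 pattern TGANTCA was in 11.3%, against 7.04%, and both Kdm4a and Kat2b have it, at -190 and at -240. The match in Kdm4a lies inside a listed region at every dose, whereas that in Kat2b lies outside the stretch listed at every dose. The E-box CACGTG was in 8 (12.9%), against 7.91%, and ATGGCGGC of YY1 in 5 (8.06%), against 3.05%. The remaining patterns had lower shares than over all promoters: CCGGAAG of ETS factors in 6 (9.68%), against 11.7%, the cAMP response element TGACGTCA in 1 (1.61%), against 2.26%, and GCATGCGC of NRF1 in 2 (3.23%), against 3.54%. The AP-1, E-box and cAMP response patterns match on both strands at the same place, each promoter was counted once, and no pattern contains another. A match describes the letters and is not a bound site.

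Other genes of the same pathways, 68 in number, were counted in the same way. A gene-end region was listed for 22 (32.4%), 24 (35.3%) and 29 (42.6%) of them in order of dose, and for 17 (25.0%) at every dose, against 19.5%, 18.7% and 23.0% of all genes and 14.2% at every dose. Other genes of acetylation had one in 4, 6 and 8 of 14 cases, of histone methylation in 10, 9 and 11 of 32, of demethylation in 5, 5 and 7 of 13, and of DNA methylation and its readers in 3, 4 and 3 of 9. The highest percentiles among those listed at every dose belonged to Mbd2, a reader of methylated CpG (scores 56, 69 and 103, percentile 95.8, 98.6 and 98.2), and Cxxc1, which brings an H3K4 methyltransferase to CpG islands (63, 59 and 87, percentile 96.7, 98.1 and 97.5). Kdm4b (29, 33 and 46), the histone-binding subunit gene Rbbp7 (27, 19 and 29), the methyltransferase gene Setd3 (29, 22 and 30) and Tdg, a glycosylase that completes TET-driven demethylation (43, 9 and 53), were also listed at each dose. No test was made of the enzyme genes against these.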

How the data were processed

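ATAC-seq of Hepa-1c1c7 cells was deposited as 3 region lists, 1 per chromate dose, each with a score per region from the authors, on a scale they do not state. Per the submitters' processing notes, Bowtie2, Picard, MACS2 and the build mm10 were used, with neither version nor role stated. Not given in the sources used here are the threshold, beyond an unexplained q label in the list names, how the untreated libraries entered, pooling, the Tn5 shift and duplicate removal. Depth is unknown, as the files hold no counts, so no interval is given. The 1 µM libraries carry another prefix in the labels (N503) than the rest (N502), which cannot be told apart from the dose.

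Regions were compared with RefSeq genes and promoters of GRCm38.p6 in 1-based coordinates (Python 3.11.15, pandas 2.3.3). A region counted for a gene when at least 1 base lay within 1000 bp of either end, or in the gene and 10000 bp either side. The counting was tested on simulated regions. No test was run, since each dose has 1 list and no replicate. Alternatives were the window, the overlap, the midpoint and the higher-scoring or wider 50% of each list. The genes and lists were chosen with earlier results of these data known. All of the 52 genes were described: those listed at a gene end at every dose in full, the others by their doses and values, and promoters were printed where a gene-end region covered the start at every dose.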

Additional observations from a re-analysis of the deposited data

How the results depend on the processing

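Of 42 recomputed counts of enzyme genes, 36 stayed within 1.5 times the reported one and 6 were lower. Counts around annotated starts and at the start end alone are out of 42 genes and the others out of 52, so their shares differ more than their counts. With any annotated start the share was 38.1%, 31.0% and 35.7% in order of dose. At gene ends it was 21.2%, 17.3% and 23.1%. The wider 50% of the 0.1 µM list gave 7 genes at a gene end (13.5%, against 13.3% of all genes). In the body or flanks it gave 12 (23.1%, against 20.9%). The higher-scoring 50% of the 1 µM list gave 5 and 13 at these places (9.62% and 25.0%, against 14.0% and 23.5%). The higher-scoring 50% of all 3 lists gave 3 genes at every dose (5.77%, against 7.11%). With a reciprocal overlap of 50% the same gene-end region was listed at every dose in 5 genes (9.62%, against 9.90%). These settings keep fewer regions or ask for more overlap by construction. Narrower and wider windows, midpoints, the start end alone and smaller flanks stayed within 1.5 times. At gene ends the higher-scoring 50% held 15.4%, 11.5% and 9.62% of the enzyme genes in order of dose. The background was 12.0%, 10.8% and 14.0% of all genes. No library could be left out, since each list stands for its dose as a whole. No paired analysis was possible because the lists hold no values per library. With no replicate and no depth, a region absent at 1 dose, as at Suz12, Kdm3a or Kat5, is not shown to have changed.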
